A study of Mus musculus with 24 samples.

Results

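The 39 genes described here are cell cycle genes chosen by symbol from lists of S phase and mitosis genes, 12 of them acting in DNA replication (S phase) and 27 in mitosis. All 39 were found among the 27179 genes of the table. All 39 also passed the filter on low values, which asked for a normalised value of 10 or more in 3 or more libraries and left 14517 genes to test. They were measured by bulk RNA-seq in PDGFRb+ cells sorted from the white adipose tissue of female and male C57BL/6 mice. There were 24 libraries in 8 groups of 3. From gonadal fat, the cells labelled APC and FIP were taken in each sex (F_APC, F_FIP, M_APC and M_FIP). From inguinal fat, the APC labelled DPP4_neg and DPP4_pos were taken in each sex (F_DPP4_neg, F_DPP4_pos, M_DPP4_neg and M_DPP4_pos), named for the presence or absence of the surface peptidase DPP4. No treatment or genotype is named for any group. The sort gates of APC and FIP and the ages of the mice are not given in the sources used here. Nor is it given whether the 3 libraries of a group came from separate animals. Each p-value of the main fit rests on how far libraries spread within their groups. That spread was pooled over all 8 groups for each gene, so the libraries of every group enter each comparison, and it may be technical.

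Proliferating cells load the MCM helicase onto DNA and copy the genome with the sliding clamp PCNA and a supply of deoxynucleotides, under cyclin E. They then enter mitosis under cyclins A and B with the kinase CDK1, align and separate chromosomes on the spindle, and divide by cytokinesis. Replication genes are classic targets of E2F factors, and mitotic genes are classic targets of the MuvB complex with B-MYB and FOXM1, which acts through CHR elements and nearby CCAAT boxes. Adipose progenitors are mostly quiescent in adult fat and divide when the depot is expanding.

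Promoter sequences were compared first, because they can be read for the S phase and the mitotic members without using expression. RefSeq windows of 300 bases (250 before and 50 after the annotated start, GRCm38.p6) were found for 33 of the 39 members, 10 of S phase and 23 of mitosis. Both strands were searched for 3 elements. The CHR was searched in its common spelling TTTGAA and in the variant TTCGAA. The E2F core was searched in 4 spellings. The first of these was TTCCCGC and the second was TTCGCGC, while the third was TTGCCGC and the last was TTGGCGC. The CCAAT box was searched in the spelling that names it. Its matches on one strand can overlap E2F core matches on the other, and E2F core matches on the 2 strands can overlap each other. A CHR was present in 19 of 23 mitotic windows (82.6%) and in 2 of 10 S phase windows (20.0%), against 16.3% of the 10981 tested genes with a window. A CHR together with a CCAAT box was present in 18 mitotic windows (78.3%) and 2 S phase windows (20.0%), against 7.91% of the tested genes. CCAAT boxes alone were held by 87.0% of mitotic, 70.0% of S phase and 42.4% of tested genes. The E2F core was held by 5 of 10 S phase windows, 5 of 23 mitotic windows (21.7%) and 18.7% of tested genes. The 4 mitotic windows without a CHR were those of Ccnb1, Birc5, Cenpe and Nusap1. Counting the first window of each gene, the 28 mitotic CHR matches had a median position 10 bases before the start site (-10), and they ranged from -188 to 40. The 5 stretches below show the contrast and are the 150 bases before the start, all on the minus strand except Kif11, with CHR, CCAAT and E2F core matches in capitals. Mki67 and Top2a are the most used proliferation markers, Kif11 is a mitotic member that behaved apart in expression, and Mcm3 and Mcm6 are helicase subunits with no CHR. They lie at chr7:135716380-135716529 (Mki67), chr11:99024190-99024339 (Top2a), chr19:37376232-37376381 (Kif11), chr1:20820313-20820462 (Mcm3) and chr1:128359706-128359855 (Mcm6).
Mki67: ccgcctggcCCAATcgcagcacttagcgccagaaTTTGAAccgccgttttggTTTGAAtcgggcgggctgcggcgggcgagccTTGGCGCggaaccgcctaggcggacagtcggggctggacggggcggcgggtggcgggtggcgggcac
Top2a: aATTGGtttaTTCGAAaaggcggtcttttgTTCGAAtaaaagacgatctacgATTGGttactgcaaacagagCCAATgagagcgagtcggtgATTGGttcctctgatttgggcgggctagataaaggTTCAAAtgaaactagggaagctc
Kif11: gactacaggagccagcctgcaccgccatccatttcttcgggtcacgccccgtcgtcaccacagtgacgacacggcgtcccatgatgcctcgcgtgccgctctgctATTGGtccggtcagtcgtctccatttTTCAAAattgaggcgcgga
Mcm3: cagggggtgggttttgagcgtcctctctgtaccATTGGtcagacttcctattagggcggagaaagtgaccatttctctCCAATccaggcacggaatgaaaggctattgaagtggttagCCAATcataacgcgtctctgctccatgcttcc
Mcm6: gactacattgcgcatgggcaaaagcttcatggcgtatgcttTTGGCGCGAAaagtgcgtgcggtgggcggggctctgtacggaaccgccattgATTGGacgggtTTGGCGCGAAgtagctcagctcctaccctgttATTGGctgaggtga
In these stretches Top2a has 3 CHR and 4 CCAAT matches, Mki67 has 2 CHR, 1 CCAAT and 1 E2F core match, and Kif11 has 1 CHR and 1 CCAAT match. Mcm3 has 3 CCAAT matches, and Mcm6 has 2 CCAAT and 4 E2F core matches. A match describes letters in the window and does not show that a factor binds there.

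**Figure D1:**
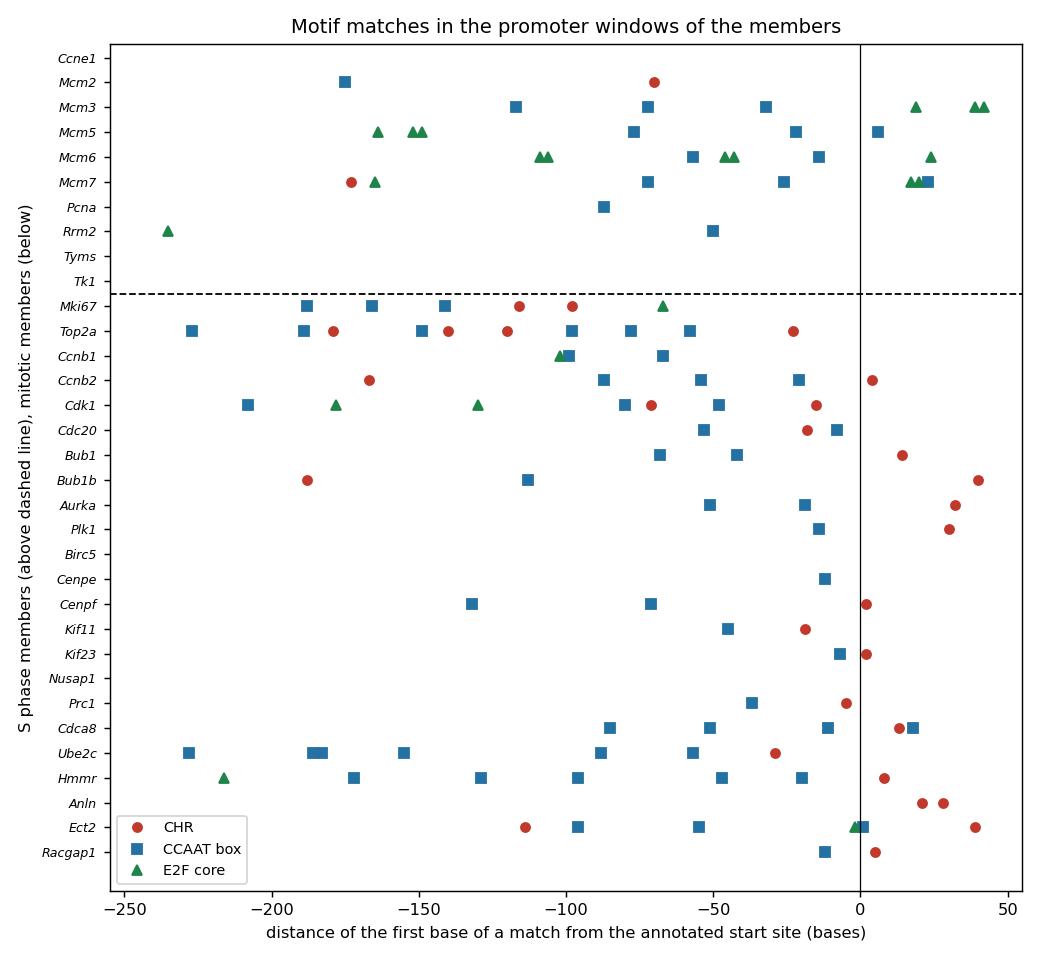
Position of each CHR (circles), CCAAT (squares) and E2F core (triangles) match in the first RefSeq window of the 33 members with one, as the distance in bases from the annotated start site (vertical line). Circles lie mostly in the mitotic rows below the dashed line, where 19 of 23 genes hold a CHR in any of their windows, against 2 of 10 S phase genes above it.

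The libraries held 9152470 to 18221692 reads on genes. Pdgfrb, the receptor used for sorting, had normalised values of 1730 to 6277 in all 24 libraries, and Pdgfra, a progenitor marker, 6232 or more. The libraries of F_DPP4_neg also held epithelial RNA, with Epcam values of 803, 1913 and 1149 against at most 61.5 in every other library. Library 3 of F_DPP4_neg and library 3 of F_DPP4_pos stood apart from their groups in the mitotic members, so results that rest on them are given with and without them. A normalised value is a gene's read count over the size factor of its library. Fold changes were fitted on log2(value + 1), a scale that makes the changes of low genes look smaller, and "rose", "fell" and "called" mean an adjusted p under 0.05 over all 14517 genes.

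The most abundant members were of S phase. Per kilobase of exon, the mean normalised value over the 24 libraries was highest for Pcna, the sliding clamp of replication, at 329, followed by the helicase subunits Mcm4 at 126 and Mcm6 at 65.0. The most abundant mitotic member on this scale was the cyclin Ccnb2 at 27.7, and the least abundant were the checkpoint kinase Bub1 at 2.78 and the kinetochore protein Cenpf at 2.04. Several mitotic members therefore rest on few reads, 3 to 46 per library for Ccnb1 and 3 to 36 for Bub1. As a share of all gene reads, in RPM (reads scaled to a fixed library total), the 27 mitotic members together took 135, 185 and 202 RPM in M_FIP and 119, 121 and 92.4 in F_FIP. The APC libraries took 74.2 to 83.8 in males and 78.7 to 98.3 in females. Among the inguinal groups, F_DPP4_neg took 82.7, 79.9 and 134 and F_DPP4_pos took 53.7, 50.7 and 107. The male inguinal libraries took less, 47.3 to 63.4 for DPP4_neg and 35.8 to 45.4 for DPP4_pos. By this share no library of another group reached the lowest M_FIP library, although F_DPP4_neg 3, at 134 against 135, came close to it. By the sum of normalised values F_DPP4_neg 3 was above M_FIP 1, at 1733 against 1671. The 12 S phase members took 212 to 235 RPM in F_APC and 98.9 to 102 in M_DPP4_pos, the highest and lowest groups. In bulk libraries, fewer cycling cells and less of these RNAs per cell cannot be told apart.

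**Figure D2:**
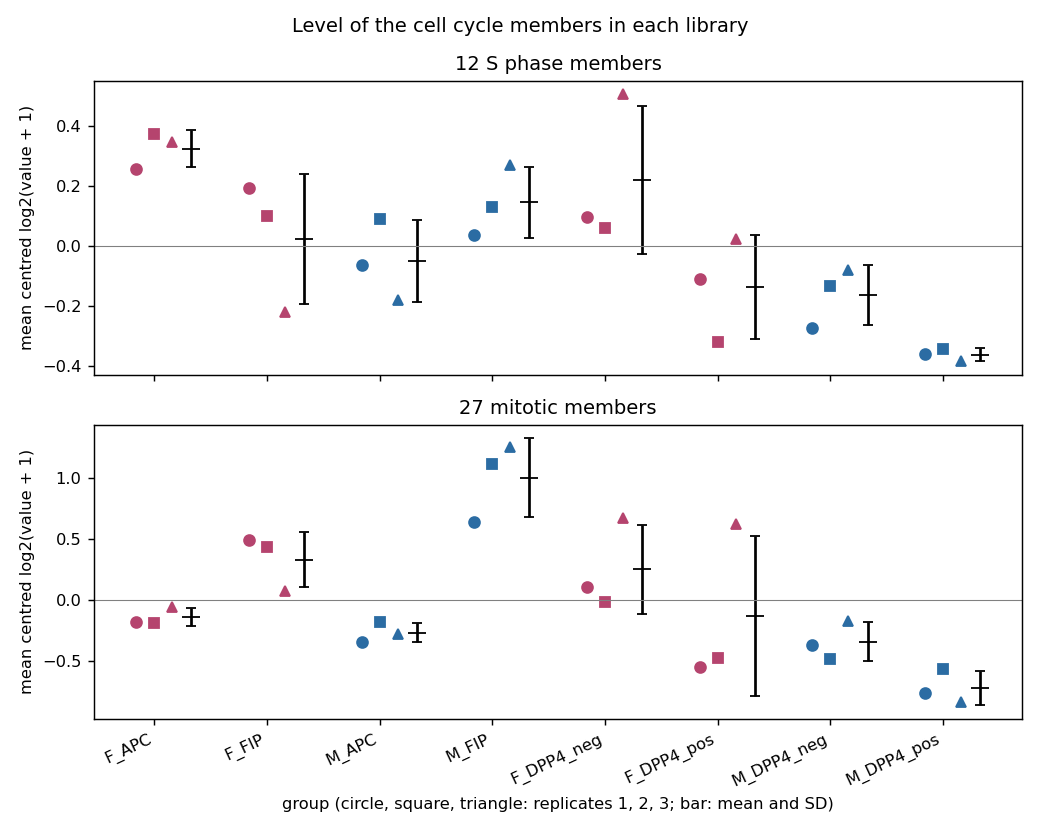
Mean over the 12 S phase members (top) and 27 mitotic members (bottom) of log2(value + 1), each gene centred on its mean over the 24 libraries, for every library (females pink, males blue), with group mean and SD beside the points. The mitotic mean was 1.01 ± 0.32 (SD, n = 3) in M_FIP and -0.72 ± 0.14 in M_DPP4_pos, and library 3 lies above libraries 1 and 2 in both female inguinal groups.

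Most mitotic members had the same highest and the same lowest group. M_FIP had the highest group mean for 24 of 27 mitotic members (88.9%), against 6.83% of all genes tested. The exceptions were Kif11, the motor that pushes spindle poles apart (highest in F_APC), Bub1b, a spindle checkpoint kinase (F_FIP), and Aurka, the kinase of spindle poles (F_DPP4_neg). M_DPP4_pos had the lowest mean for 20 of 27 (74.1%), against 18.0% of all genes. The highest group mean was 6.41 times the lowest for Cenpf, 6.33 times for the cytokinesis motor Kif23, 4.45 times for Mki67 and 2.59 times for Ube2c. Among the S phase members, F_APC was highest for 6 of 12 (Ccne1, Mcm3, Mcm4, Pcna, Rrm2 and Tyms), F_DPP4_neg for 4 (Mcm2, Mcm5, Mcm6 and Mcm7) and M_FIP for 2 (Ccne2 and Tk1), while M_DPP4_pos was lowest for 6. The highest over lowest group mean ranged from 1.42 for Tyms to 7.97 for Ccne1.

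**Figure D3:**
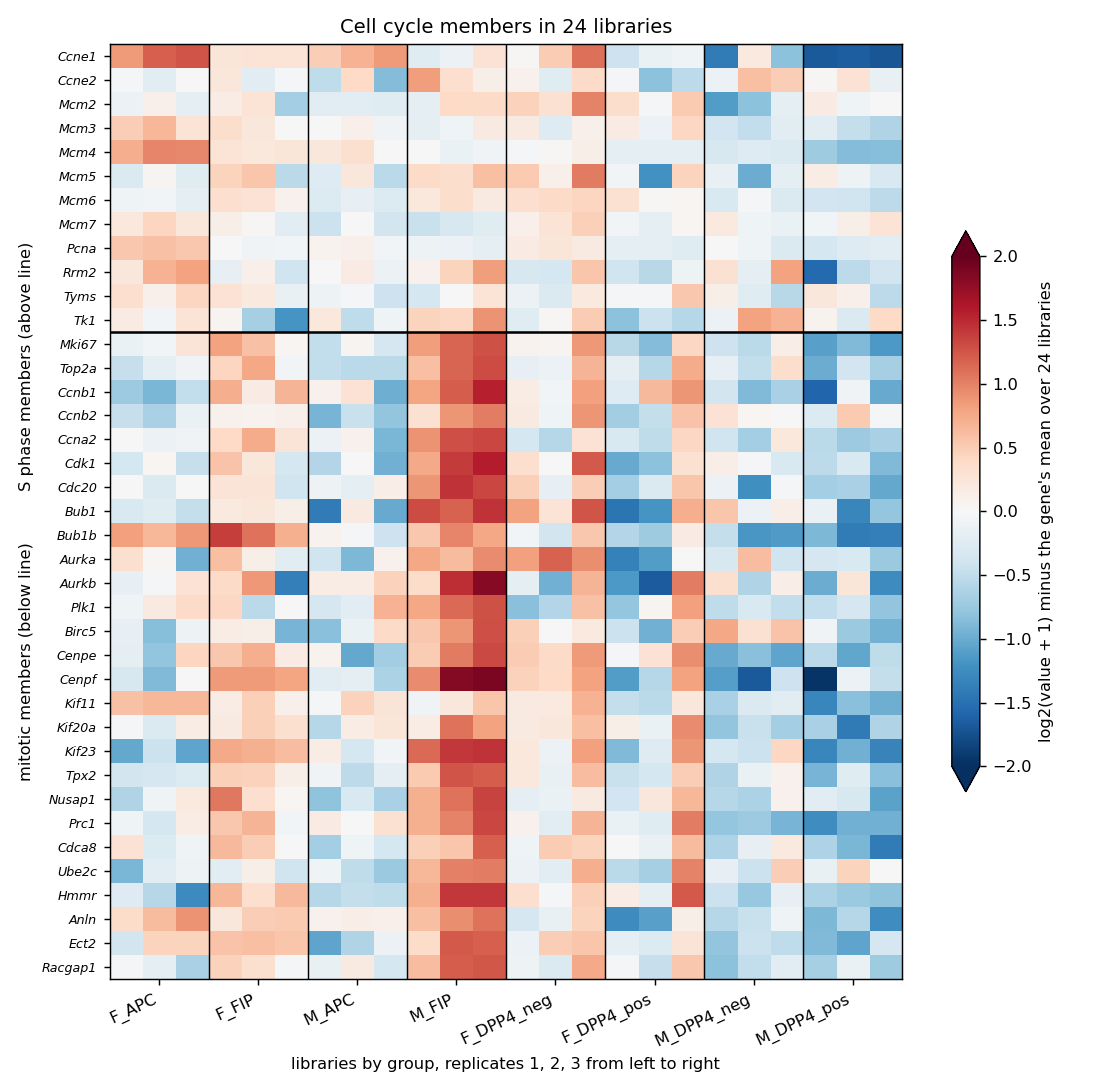
Each member (rows, S phase above the line) in each of the 24 libraries (columns by group), as log2(value + 1) minus the gene's mean over all libraries. Red is above and blue is below that mean. The mitotic rows are mostly red across the 3 M_FIP columns and mostly blue in M_DPP4_pos, whereas S phase rows such as Mcm4 and Pcna are red in F_APC.

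Gonadal FIP and APC were compared within each sex. In males, 25 of 27 mitotic members were called higher in FIP and none lower, against 18.9% of all genes tested called higher and 18.0% lower. Their median log2 fold change was 1.34, against -0.03 over all genes. For 24 members, all 3 FIP libraries lay above all 3 APC libraries, against 25.2% of all genes. Left out in turn, single libraries gave 20 to 25 called members. The 2 members not called were Aurkb, the kinase of the chromosomal passenger complex (0.96 ± 0.59, SE, adjusted p = 0.213), and Kif11 (0.00 ± 0.21).

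Mki67, whose protein Ki-67 coats mitotic chromosomes, had normalised values of 239, 299 and 322 in M_FIP and 94.4, 139 and 105 in M_APC. Every FIP library was above every APC library, and the log2 fold change was 1.34 ± 0.26 (adjusted p = 0.000205). Top2a, the topoisomerase that untangles sister chromatids, had 193, 286 and 314 in M_FIP against 90.1, 86.9 and 87.1 in M_APC. The groups did not overlap here either. Cdk1, the kinase that starts mitosis, had 39.7, 62.4 and 70.7 against 15.0, 23.2 and 11.3 (1.76 ± 0.35, adjusted p = 0.000251). Its partner cyclin gene Ccnb1 had 21.7, 29.4 and 37.4 against 12.9, 15.1 and 5.66 (1.39 ± 0.39, adjusted p = 0.00614). Library 1 of M_FIP was the lowest of its group for all 4 genes, yet above every APC library.

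The largest male fold changes among called mitotic members were those of Bub1, Cenpf and Cdk1. Bub1, a kinase of the spindle checkpoint, had 26.5, 24.1 and 29.3 in M_FIP and 3.22, 11.6 and 4.53 in M_APC (2.05 ± 0.45, adjusted p = 0.000747). Cenpf, which links kinetochores to microtubules, had 49.1, 91.9 and 95.1 against 21.5, 22.0 and 15.8 (1.89 ± 0.43, adjusted p = 0.000996). The groups were separate for both. Both B cyclins and Ccna2 rose (1.39 to 1.49), as did Cdc20 (1.27 ± 0.31) and Ube2c (1.34 ± 0.35), which act with the anaphase-promoting ubiquitin ligase. The spindle proteins Hmmr (1.70 ± 0.31), Nusap1 (1.64 ± 0.31) and Tpx2 (1.26 ± 0.26) rose, and all 6 cytokinesis genes rose, from 0.73 ± 0.29 for Kif20a to 1.52 ± 0.28 for Ect2.

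Markers of other cells moved in both directions between M_FIP and M_APC, and their part in the mitotic values was not tested. Of 13 macrophage markers 0 were called higher and 2 lower, of 9 mural markers 5 were lower, of 5 lymphocyte markers 4 were lower, and of 7 adipocyte markers 6 were lower. The summed macrophage value was 439 to 619 in M_FIP against 678 to 939 in M_APC. Of 10 endothelial markers 1 was called higher, Tek (median of the 10 fold changes -0.04). The endothelial sum was 6337 to 7380 in M_FIP against 4083 to 4633 in M_APC. Tek made up most of that sum in M_FIP, with 4482, 4704 and 4971 reads against 1591, 1397 and 1533 in M_APC. Of 10 mesothelial markers none was called by limma in either direction, although their sum was 3852 to 4169 against 2817 to 3169. Wt1 made up most of the mesothelial sum in both groups (3847, 3965 and 4274 reads against 2490, 2146 and 2380). Of 10 epithelial markers 1 was called higher, Cldn3, with a mean of 42.1 in M_FIP against 0.735 in M_APC, and Cdh1 was at 0 in all 3 M_FIP libraries.

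In females, 5 of 27 mitotic members were called higher in FIP and none lower, against 21.3% of all genes higher and 18.1% lower, a share near that background. The median was 0.45, and 23 of 27 had a fold change above 0. Mki67 had 233, 200 and 136 in F_FIP and 121, 128 and 159 in F_APC (0.45 ± 0.26, adjusted p = 0.182). Library 3 of F_FIP lay inside the range of APC. Top2a had 170, 217 and 122 against 92.1, 112 and 120 (0.62 ± 0.28, adjusted p = 0.0808), and Cdk1 had 34.9, 27.3 and 17.9 against 17.8, 23.8 and 16.6 (0.41 ± 0.35, adjusted p = 0.380). The called members were Kif23, Hmmr, Ccnb1, Cenpf and Tpx2. Kif23, a motor of the central spindle, had 36.6, 35.0 and 32.8 in F_FIP against 9.90, 15.5 and 9.68 in F_APC (1.53 ± 0.33, adjusted p = 0.000654). Hmmr, a spindle assembly factor, had 29.1, 23.0 and 28.9 against 14.9, 11.9 and 6.91 (1.25 ± 0.31, adjusted p = 0.00235). Ccnb1 had 20.8, 13.6 and 19.9 against 6.93, 5.95 and 8.30 (1.23 ± 0.39, adjusted p = 0.0132). These 3 genes separated the groups completely. The count of 5 was 2 without F_FIP 1 and 3 without F_FIP 2 or F_APC 2. In females 12 of 13 macrophage, 8 of 10 endothelial and 8 of 9 mural markers were called lower in FIP, and their part was not tested.

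**Figure D4:**
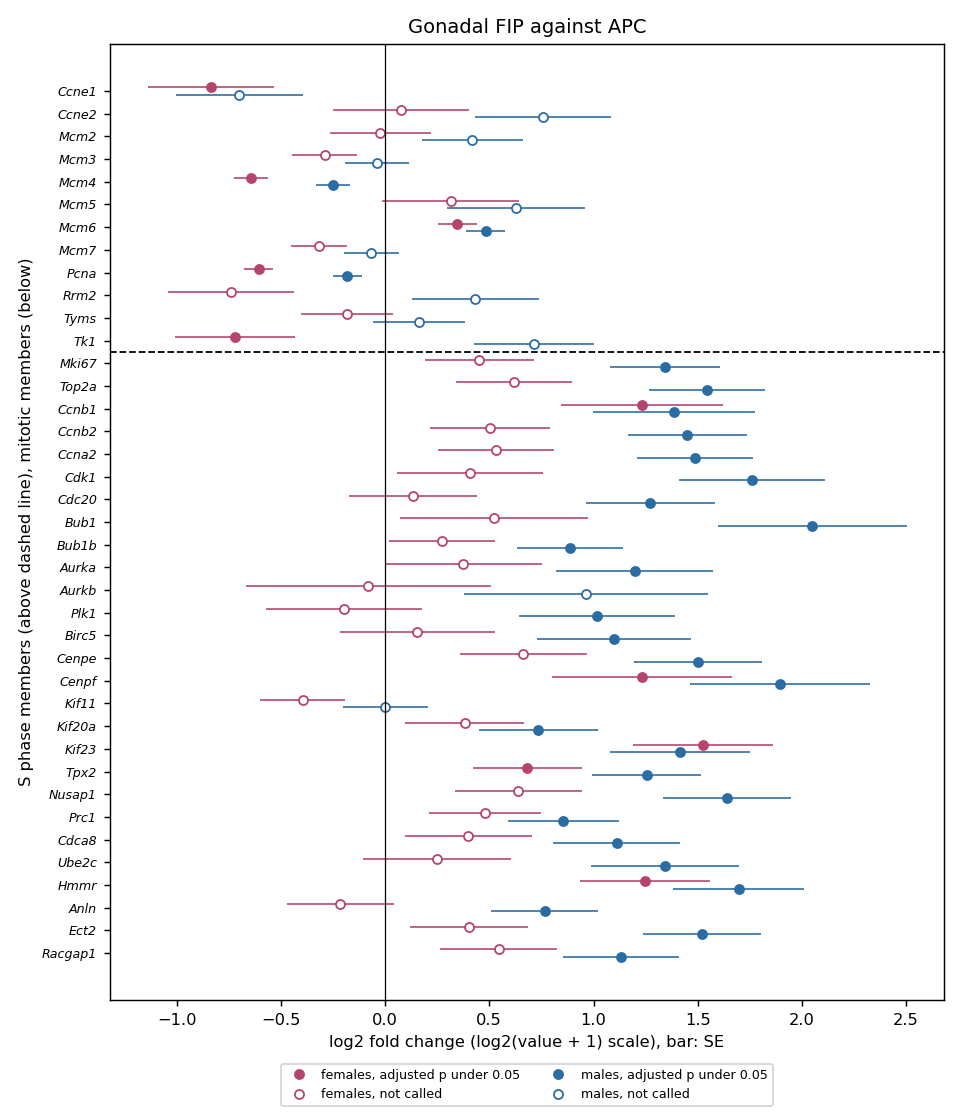
Log2 fold change of FIP over APC for each member in females (pink) and males (blue), with SE bars; filled points passed an adjusted p of 0.05. Among the mitotic members below the dashed line, 25 are filled in males and 5 in females, whereas the S phase points lie on both sides of 0.

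Among the S phase members, the fold changes of FIP over APC were mixed. In females 1 rose and 4 fell of 12 (median -0.30), against 21.3% of all genes higher and 18.1% lower. In males 1 rose and 2 fell (median 0.29), against 18.9% and 18.0%. Mcm6 rose in both sexes, with 375, 365 and 317 in F_FIP against 280, 288 and 261 in F_APC (0.35 ± 0.09, adjusted p = 0.00436), and 345, 378 and 336 in M_FIP against 245, 264 and 247 in M_APC (0.48 ± 0.09, adjusted p = 0.000185). Its partner Mcm4 fell in both sexes, with 523, 496 and 512 against 715, 845 and 841 in females (-0.65 ± 0.08, adjusted p = 4.85e-07), and 431, 393 and 410 against 505, 536 and 431 in males (-0.25 ± 0.08, adjusted p = 0.0173). The female groups were separate for both subunits. In males Mcm6 separated the groups, while for Mcm4 the nearest libraries, both 431 at 3 digits, only just did not overlap. The adjusted p of Mcm4 in males was 0.118 without M_APC 2, 0.065 without M_APC 1 and 0.0777 without M_FIP 2.

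Pcna had 768, 741 and 746 in F_FIP against 1134, 1168 and 1134 in F_APC (-0.61 ± 0.07, adjusted p = 8.14e-08), with no overlap. In males Pcna had 722, 716 and 677 against 819, 836 and 746 (-0.18 ± 0.07, adjusted p = 0.0393). That male call was lost when any library except M_APC 3 was left out, with adjusted p from 0.0557 to 0.148. Ccne1, cyclin E1, had 24.1, 24.7 and 24.9 in F_FIP against 37.6, 47.6 and 49.8 in F_APC (-0.84 ± 0.30, adjusted p = 0.0303). Tk1, the thymidine kinase of the salvage pathway, had 41.5, 24.7 and 16.9 against 44.6, 38.1 and 48.4 (-0.72 ± 0.29, adjusted p = 0.0487), and all F_FIP libraries but the first lay below F_APC. The call of Tk1 was lost with edgeR (adjusted p = 0.0992) and DESeq2 (0.0976). The other replication members did not pass. Mcm2 had 77.3, 84.4 and 42.8 in F_FIP against 64.4, 74.9 and 60.8, and 60.5, 91.9 and 91.0 in M_FIP against 60.1, 59.1 and 58.8. Mcm5 had 88.1, 94.7 and 43.8 against 52.5, 66.6 and 53.9 in females, and 84.1, 82.1 and 97.5 against 53.7, 75.3 and 44.1 in males (0.63 ± 0.33, adjusted p = 0.143). Rrm2, the regulated subunit of ribonucleotide reductase, had 28.2, 34.1 and 23.9 against 37.6, 52.3 and 56.7 in females (-0.74 ± 0.30, adjusted p = 0.0554), and 34.0, 43.7 and 57.7 against 32.2, 35.9 and 29.4 in males (0.43 ± 0.30, adjusted p = 0.285).

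The difference of the 2 FIP over APC fold changes, male minus female, was tested directly. Of the 27 mitotic members, limma called none, 12 had an unadjusted p under 0.05, edgeR called none and DESeq2 called 1, so the larger male count was not shown gene by gene to be a sex difference. The median difference was 0.89, and 26 of 27 were above 0, against an all-gene median of -0.02. Leaving out single libraries gave 0 to 2 calls. Of the 12 S phase members, 3 were called higher and none lower, against 5.46% and 5.33% of all genes, and all 12 differences were above 0 (median 0.37). These were Tk1 (1.44 ± 0.41, adjusted p = 0.0216), Pcna (0.43 ± 0.10, adjusted p = 0.00456) and Mcm4 (0.40 ± 0.11, adjusted p = 0.0252). Without F_APC 3 a single S phase member was called.

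Other genes of the same programme, from lists outside the 39, were read in the same fit. Of 19 tested genes of the kinetochore, spindle checkpoint and condensin, 11 rose and none fell in male FIP against APC (median 1.22), against 18.9% of all genes higher and 18.0% lower. The largest were Kif2c, a microtubule depolymerase of centromeres (2.10 ± 0.47, adjusted p = 0.000833), and Spc25, a subunit of the NDC80 complex (1.92 ± 0.43, adjusted p = 0.000997). In females 0 rose and 1 fell, against 21.3% and 18.1% of all genes, and that 1 was Smc4 of condensin (-0.36 ± 0.11, adjusted p = 0.0112). Of 18 genes of replication origins and forks, 4 rose and 3 fell in males (median 0.04) and 2 rose and 2 fell in females (median -0.08), shares near or below those of all genes. Gins2, a subunit of the replicative helicase, rose in both sexes (0.78 ± 0.27 in males, adjusted p = 0.022, and 0.77 ± 0.27 in females, adjusted p = 0.0225). Of 15 E2F, RB and MYB-FOXM1 regulators, 5 rose and 1 fell in each sex, beside the same shares of all genes. E2f7, a repressor of the E2F family, rose by 1.12 ± 0.17 (adjusted p = 1.16e-05) in males and 0.69 ± 0.17 (adjusted p = 0.00231) in females, and the activator E2f1 by 1.04 ± 0.13 (adjusted p = 2.69e-07) and 0.60 ± 0.13 (adjusted p = 0.000452).

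Every mitotic member called between inguinal DPP4_pos and DPP4_neg cells was lower in DPP4_pos, in a share of members no larger than the share of all genes called lower. In females 6 of 27 were called lower in DPP4_pos and none higher, against 27.1% of all genes lower and 22.6% higher (median -0.38, all genes -0.04). In males 5 of 27 were called lower and none higher, against 25.3% and 25.2% (median -0.32, all genes 0.00). With quantile normalisation these medians changed sign, to 0.09 in females and 0.01 in males. With the replicate number as a block in the female inguinal libraries, the female count was again 6. With 1 library left out, it was 1 without F_DPP4_neg 3, 1 without F_DPP4_pos 1 or 2, and 10 without F_DPP4_pos 3. In males it was 2 without M_DPP4_neg 3 or M_DPP4_pos 3.

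Mki67 had 140, 139 and 244 in F_DPP4_neg and 90.0, 72.2 and 178 in F_DPP4_pos (-0.67 ± 0.26, adjusted p = 0.037), and the third library was the highest in both groups. In males it had 99.5, 90.9 and 146 in M_DPP4_neg and 62.2, 71.5 and 59.5 in M_DPP4_pos (-0.76 ± 0.26, adjusted p = 0.0177), with no overlap. Cdk1 had 29.4, 23.2 and 55.3 against 11.0, 12.7 and 28.9 in females (-1.03 ± 0.35, adjusted p = 0.0172). That difference was -0.67 without F_DPP4_neg 3 (adjusted p = 0.143). Aurka had 21.5, 27.9 and 23.1 against 4.001, 4.88 and 11.6 (-1.80 ± 0.38, adjusted p = 0.000296), and Bub1 had 18.3, 12.4 and 25.6 against 3.001, 3.90 and 17.3 (-1.42 ± 0.45, adjusted p = 0.0112). Of these 4 genes, Aurka alone separated the female groups. Top2a had 113, 116 and 203 against 112, 84.9 and 212 and was not called. In males the other members with the largest called changes were Birc5 (survivin), with 31.5, 22.5 and 27.1 in DPP4_neg and 17.0, 10.4 and 8.81 in DPP4_pos (-1.14 ± 0.37, adjusted p = 0.0124), Kif23 (-1.07 ± 0.33, adjusted p = 0.00924) and Cdca8, a chromosomal passenger protein (-0.78 ± 0.30, adjusted p = 0.036).

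Of the S phase members, 7 of 12 were called lower in female DPP4_pos and none higher, against 27.1% of all genes lower. With the block the count was again 7. It was 1 to 6 with single libraries left out and 2 without both libraries numbered 3. Mcm5 had 93.0, 68.9 and 133 in F_DPP4_neg against 62.0, 27.3 and 87.6 in F_DPP4_pos (-0.83 ± 0.33, adjusted p = 0.0405), with overlap. Pcna had 871, 919 and 879 against 675, 679 and 654 (-0.41 ± 0.07, adjusted p = 1.88e-05), with none. The other 5 were Ccne1, Tk1, Mcm7, Mcm6 and Mcm4 (-0.75 to -0.21). In males 4 fell (Rrm2, Ccne1, Mcm4 and Mcm6) and 1 rose, against 25.3% lower and 25.2% higher. Rrm2 had 39.6, 27.6 and 56.7 in M_DPP4_neg and 10.2, 21.9 and 24.2 in M_DPP4_pos (-1.12 ± 0.30, adjusted p = 0.00313). Mcm2 was the one that rose, with 31.5, 38.8 and 60.4 against 78.0, 65.8 and 69.4 (0.74 ± 0.24, adjusted p = 0.0124). Both separated the male groups. In females Mcm2 went from 96.1, 85.9 and 140 to 89.0, 68.3 and 100, and the male minus female difference was called (1.05 ± 0.34, adjusted p = 0.0225). Pcna was called higher and Mcm4 lower in that difference, so that 2 of 12 S phase members were higher and 1 lower, against 16.4% and 12.6% of all genes. Of the mitotic members none was called in that difference by limma, edgeR or DESeq2, and 1 had an unadjusted p under 0.05.

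All 10 epithelial markers were called lower in female DPP4_pos than DPP4_neg, as were 13 of 13 macrophage, 7 of 10 endothelial, 6 of 9 mural and 6 of 10 mesothelial markers, while 2 endothelial markers and 1 mural marker were higher. Krt8 and Krt18 are on both the epithelial and the mesothelial list. The summed epithelial value was 8280 to 19882 in F_DPP4_neg and 377 to 667 in F_DPP4_pos. The summed macrophage value was 775 to 1646 in F_DPP4_neg and 331 to 404 in F_DPP4_pos. The mean centred log2 value of the macrophage markers was highest, 1.82, in F_DPP4_neg 3, the library of that group with the most mitotic reads. In F_DPP4_pos it was -0.52 to -0.18. There the library with the most mitotic reads, F_DPP4_pos 3, did not have the highest macrophage value. In males 6 of 13 macrophage and 5 of 5 lymphocyte markers were called lower. The part of these cells in the cell cycle values was not tested.

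Males and females were then compared within each population. Among FIP, 7 of 27 mitotic members were called higher in males and none lower, against 18.2% of all genes higher and 19.0% lower (median 0.64, all genes -0.02). Those 7 were Cdc20, Birc5, Plk1, Cdk1, Ube2c, Racgap1 and Ccna2. All 3 male libraries lay above all 3 female libraries for 18 of 27, against 26.4% of all genes. Cdc20, the activator of the anaphase-promoting ligase, had 52.0, 77.6 and 71.5 in M_FIP and 33.2, 33.3 and 20.9 in F_FIP (1.18 ± 0.31, adjusted p = 0.00352). Birc5 had 26.5, 33.9 and 45.5 against 19.9, 19.6 and 8.96 (1.12 ± 0.37, adjusted p = 0.0188), and the mitotic kinase Plk1 had 31.2, 40.1 and 44.7 against 24.1, 11.9 and 17.9 (1.10 ± 0.37, adjusted p = 0.022). All 3 separated the sexes, with library 1 the lowest male library each time. The count was 1 without M_FIP 3, 2 without M_FIP 2 or F_FIP 3, 11 without M_FIP 1, and 15 with edgeR. Markers of other cells moved in the same direction: 11 of 13 macrophage, 8 of 10 endothelial, 6 of 9 mural and 7 of 7 adipocyte markers were called higher in M_FIP. The summed macrophage value was 439 to 619 in M_FIP and 184 to 247 in F_FIP. Their part in the mitotic difference was not tested.

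In the other 3 populations every called mitotic member was lower in males. In APC 2 of 27 were lower, against 22.1% of all genes lower and 22.4% higher, Bub1b (-0.91 ± 0.25, adjusted p = 0.00506) and Ect2 (-0.77 ± 0.28, adjusted p = 0.0298). In DPP4_neg 10 of 27 were lower (median -0.59), against 30.3% lower and 27.1% higher, and in DPP4_pos 12 of 27 (median -0.64), against 25.5% lower and 27.1% higher. The same-numbered libraries of the female inguinal groups deviated together. A fit with their number as a block set each female inguinal group at its fitted level for replicate 1. Against that level, in place of the group mean, the counts were 5 in DPP4_neg and 5 in DPP4_pos. The comparison of the sexes was therefore not adjusted for pairing. Without F_DPP4_pos 3 the DPP4_pos count was 6. In DPP4_neg the largest were Cenpf, Cenpe and Aurka. Cenpf had 11.2, 7.15 and 18.5 in males against 35.0, 33.3 and 44.6 in females (-1.62 ± 0.43, adjusted p = 0.00241, and 0.0518 against the replicate 1 level). The kinetochore motor Cenpe had 15.2, 17.4 and 14.8 against 45.3, 41.8 and 57.8 (-1.54 ± 0.31, adjusted p = 0.000135). Aurka changed by -1.02 ± 0.38 (adjusted p = 0.0246, and 0.228 against the replicate 1 level). Cenpf, Cenpe and Aurka did not overlap between the sexes. In DPP4_pos Prc1, which bundles the central spindle, had 22.6, 27.7 and 27.5 against 50.02, 45.8 and 112 (-1.27 ± 0.27, adjusted p = 0.000306). Kif20a had 20.3, 11.5 and 20.9 against 35.0, 29.3 and 62.8 (-1.19 ± 0.29, adjusted p = 0.0011). These differences separated the sexes with or without library 3. Ccnb1 had 3.39, 11.5 and 5.51 against 10.003, 19.5 and 23.1 (-1.31 ± 0.39, adjusted p = 0.00646, and 0.118 against the replicate 1 level), with overlap. All 10 epithelial markers were called lower in male DPP4_neg, and 6 of 10 in male DPP4_pos. In DPP4_neg 6 of 13 macrophage, 7 of 10 endothelial and 4 of 10 mesothelial markers were also called lower in males. The lymphocyte and adipocyte markers went the other way there, with 3 of 5 and 4 of 7 called higher in males and none lower. Of 9 mural markers 4 were called lower and 2 higher. The macrophage sum was 775 to 1646 in females, and the mean centred log2 value of these markers was highest, 1.82, in F_DPP4_neg 3. In males that sum was 544 to 885. The mesothelial sum was 6852 or more in females and at most 91.3 in males. In females Krt8, Krt18 and Krt19 made up almost all of it, and Krt8 and Krt18 are also on the epithelial list. Krt8 had 3588, 8761 and 4930 reads in F_DPP4_neg. Msln had 5, 4 and 8 there and 2, 6 and 1 in M_DPP4_neg. In DPP4_pos 5 macrophage markers were called lower and 2 higher in males, and 7 of 7 adipocyte markers were called higher. The part of these cells was not tested.

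Among the S phase members, Mcm4 was lower in males in all 4 populations. The log2 fold change of males over females was -0.71 ± 0.08 in APC (adjusted p = 1.03e-07), -0.31 ± 0.08 in FIP (adjusted p = 0.00371), -0.32 ± 0.08 in DPP4_neg (adjusted p = 0.00145) and -0.64 ± 0.08 in DPP4_pos (adjusted p = 4.06e-07). In DPP4_neg its values were 343, 358 and 351 in males against 419, 436 and 465 in females, and in DPP4_pos 261, 236 and 237 against 380, 381 and 381, so that neither pair overlapped. In all, 4 of 12 S phase members were lower in male APC (against 22.1% of all genes), 1 in FIP (19.0%), 7 in DPP4_neg (30.3%) and 4 in DPP4_pos (25.5%). The 1 called higher was Tk1 in FIP, with 54.8, 53.5 and 74.8 in M_FIP and 41.5, 24.7 and 16.9 in F_FIP (1.18 ± 0.29, adjusted p = 0.00193). In APC the others with the largest called changes were Mcm7 (-0.55 ± 0.13, adjusted p = 0.00139) and Pcna (-0.52 ± 0.07, adjusted p = 8.64e-07). In DPP4_neg Mcm2 had 31.5, 38.8 and 60.4 in males against 96.1, 85.9 and 140 in females (-1.30 ± 0.24, adjusted p = 6.07e-05), and Ccne1 had 7.10, 23.5 and 11.1 against 20.7, 29.4 and 44.6 (-1.21 ± 0.30, adjusted p = 0.0014). In DPP4_pos Ccne1 had 5.65, 5.77 and 5.51 against 15.0, 18.5 and 19.0 (-1.47 ± 0.30, adjusted p = 0.00023). Mcm2 in DPP4_neg and Ccne1 in DPP4_pos separated the sexes.

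Gonadal FIP were last set beside inguinal DPP4_pos cells, and gonadal APC beside inguinal DPP4_neg cells. Depot and sorted population both differ in these pairs and cannot be told apart, and the FIP pair uses the same FIP libraries as the comparison with APC. In males 26 of 27 mitotic members were higher in FIP than in DPP4_pos, against 32.6% of all genes higher and 32.4% lower (median 1.71, all genes 0.02), and Ube2c was not called (0.80 ± 0.35, adjusted p = 0.0515). Kif23 had 47.2, 58.0 and 59.3 in M_FIP and 7.91, 10.4 and 7.71 in M_DPP4_pos (2.53 ± 0.33, adjusted p = 3.38e-07). Cenpf had 49.1, 91.9 and 95.1 against 5.65, 23.1 and 17.6 (2.41 ± 0.43, adjusted p = 2.64e-05), and Mki67 had 239, 299 and 322 against 62.2, 71.5 and 59.5 (2.13 ± 0.26, adjusted p = 1.13e-07). The 2 groups were far apart for all 3. Single libraries left out gave 25 to 27 called members. Markers of several other cells were also called higher in M_FIP than in M_DPP4_pos, 8 of 13 macrophage, 9 of 10 endothelial, 7 of 9 mural and 10 of 10 mesothelial. The lymphocyte markers went the other way, with a mean centred log2 value of -1.29 to -0.84 in M_FIP against 0.02 to 0.74 in M_DPP4_pos. The part of these cells in the mitotic values was not tested. Of the 12 S phase members 5 were higher and 1 lower, Mcm7 (-0.45 ± 0.13, adjusted p = 0.00517), against 32.6% and 32.4% of all genes. The largest were Ccne1 (1.66 ± 0.30, adjusted p = 3.45e-05), Rrm2 (1.28 ± 0.30, adjusted p = 0.000691) and Mcm4 (0.75 ± 0.08, adjusted p = 1.4e-08). Of 19 kinetochore, checkpoint and condensin genes outside the members, 18 were higher and none lower.

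**Figure D5:**
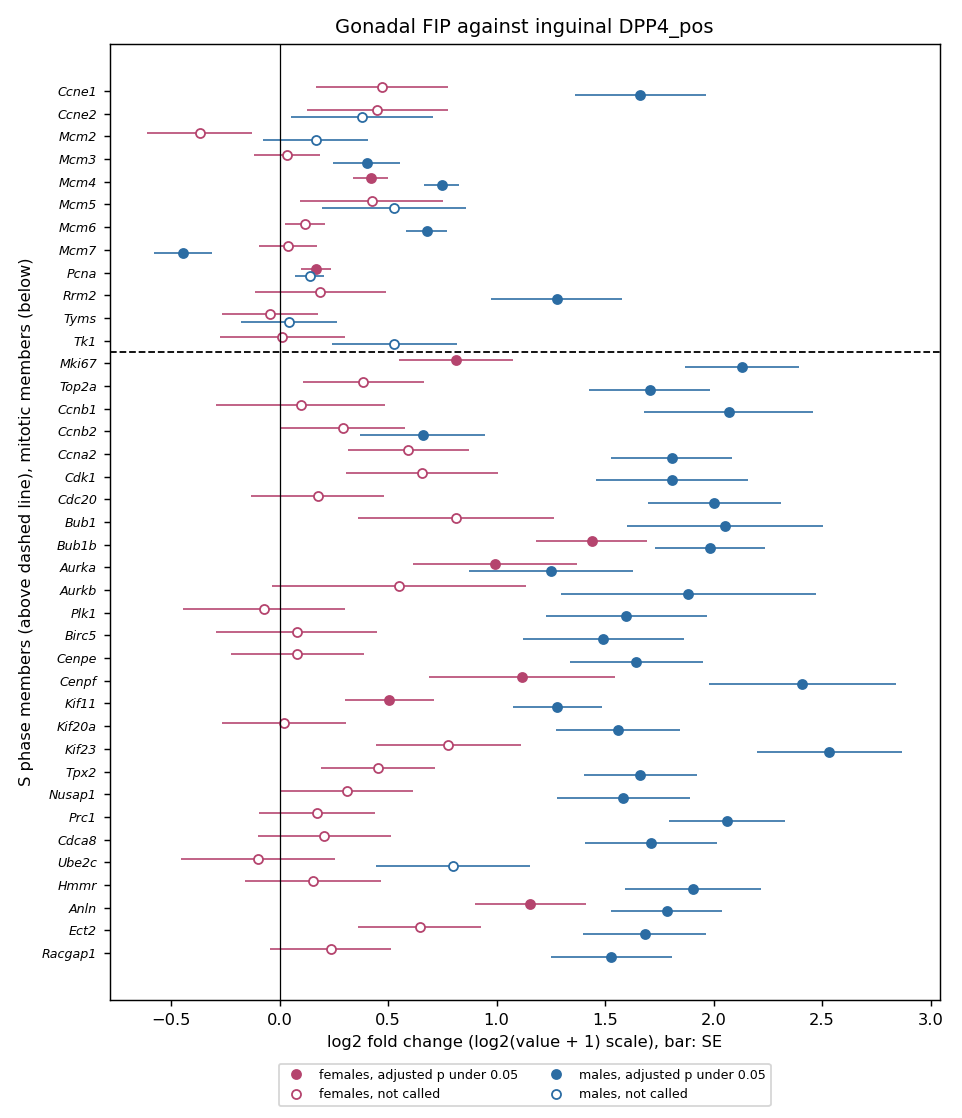
Log2 fold change of gonadal FIP over inguinal DPP4_pos cells for each member in females (pink) and males (blue), with SE bars; filled points passed an adjusted p of 0.05. In males 26 of 27 mitotic members are filled and lie between 0.66 and 2.53, and in females 6 are filled.

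In females 6 of 27 mitotic members were higher in FIP than in DPP4_pos and none lower, against 22.1% of all genes higher and 22.6% lower (median 0.39). Bub1b had 124, 101 and 77.6 in F_FIP and 31.0, 28.3 and 52.9 in F_DPP4_pos (1.44 ± 0.25, adjusted p = 4.92e-05). Anln, a scaffold of the cleavage furrow, had 128, 153 and 157 against 45.0, 50.7 and 118 (1.16 ± 0.26, adjusted p = 0.000638). Both separated the groups, with library 3 the highest of DPP4_pos. The count was 13 without F_DPP4_pos 3, 2 without F_FIP 1, F_DPP4_pos 1 or F_DPP4_pos 2, 3 without F_FIP 2, and 3 with edgeR or DESeq2. It was 11 in the fit with the block, where F_DPP4_pos stood at its replicate 1 level and not at its group mean. The male minus female difference was called higher for 18 of 27 mitotic members, and lower for none, against 15.7% and 19.2% of all genes (median 1.29, all genes -0.01). It was called higher for 10 without F_DPP4_pos 3. The largest were Ccnb1 (1.97 ± 0.55, adjusted p = 0.00689), Prc1 (1.89 ± 0.38, adjusted p = 0.000394) and Cdc20 (1.83 ± 0.44, adjusted p = 0.00199). Of the 12 S phase members 2 were higher in female FIP, Mcm4 (0.42 ± 0.08, adjusted p = 0.000147) and Pcna (0.17 ± 0.07, adjusted p = 0.0495), against 22.1%. The Pcna call was lost with each single library left out, and against the replicate 1 level of F_DPP4_pos (adjusted p = 0.103).

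Between gonadal APC and inguinal DPP4_neg cells in males, 3 of 27 mitotic members were higher in APC and 1 was lower (median 0.02), against 33.1% and 33.0% of all genes. The higher ones were Prc1 (0.96 ± 0.27, adjusted p = 0.00283), Bub1b (0.80 ± 0.25, adjusted p = 0.00774) and Kif11 (0.62 ± 0.21, adjusted p = 0.0107), and the lower one was Ccnb2 (-0.82 ± 0.29, adjusted p = 0.0143). In females 2 were higher and 7 lower (median -0.39), against 26.8% and 32.2%. Against the replicate 1 level of F_DPP4_neg, from the fit with the block, 4 in all were called. The lower ones were led by Aurka (-1.18 ± 0.38, adjusted p = 0.00929), Kif23 (-1.14 ± 0.33, adjusted p = 0.00519) and Bub1 (-1.13 ± 0.45, adjusted p = 0.035). Against that replicate 1 level their adjusted p-values were 0.125, 0.0814 and 0.201. Bub1b was higher in APC in both sexes. Of the S phase members, Mcm4, Mcm3 and Pcna were higher in APC in both sexes, with Mcm4 at 0.86 ± 0.08 in females (adjusted p = 1.83e-09) and 0.48 ± 0.08 in males (adjusted p = 1.42e-05). Ccne1 was also higher in male APC (1.35 ± 0.30, adjusted p = 0.000381). In females Mcm2 (-0.65 ± 0.24, adjusted p = 0.0232) and Mcm6 (-0.49 ± 0.09, adjusted p = 8.15e-05) were lower. The male minus female difference was called higher for 5 of 27 mitotic members (Cenpf, Ccnb1, Prc1, Kif23 and Cenpe), and lower for none, against 22.6% and 20.3% of all genes. With F_DPP4_neg at its replicate 1 level it was called for 1. All 10 epithelial and 9 of 13 macrophage markers were lower in female APC than in DPP4_neg, 10 of 10 endothelial and 7 of 10 mesothelial markers were higher (the other 3 mesothelial markers were lower), and their part was not tested.

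Scaling each library to its total reads in place of the size factors shifted the median of all genes by more than 0.1 in several comparisons, to 0.43 in male APC against DPP4_neg, 0.39 in male FIP against DPP4_pos and -0.31 in male against female DPP4_neg. Under that scaling, with these shifts not subtracted, no member called in the comparisons of 2 groups changed its direction. In male FIP against APC the all-gene median was -0.08 under that scaling.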

How the data were processed

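Per the labels' protocols, RNA was extracted with Trizol and libraries were made with NEBNext Ultra II reagents. The authors deposited normalised values, a signal equal to each gene's read count divided by 1 size factor per library, and these were whole multiples of 1 read within 0.01 read for 100% of values. In 3 libraries (F_APC 1, F_FIP 3 and F_DPP4_pos 1) the value of 1 read is close to 1, and whole reads could not be told from the values alone, so their read counts, and the edgeR and DESeq2 fits that use them, are less certain. The submitters' processing notes name DESeq2 1.6.3, featureCounts 1.4.6, HISAT2 2.0.1, Trim Galore 0.4.1 and the build GRCm38 (mm10), without their settings. Whether counting used strand is not given in the sources used here.

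Genes that reached a value of 10 in 3 or more libraries were tested (14517 of 27179). In R 4.3.3, limma 3.58.1 with an intensity trend was fitted to log2(value + 1) with 1 mean for each of the 8 groups, and p-values were adjusted by Benjamini-Hochberg over all 14517 genes within each of 12 comparisons of 2 groups and 4 male minus female differences. The pipeline was tested on simulated data. Library depth, 9152470 to 18221692 reads, limits the precision of low members. Same-numbered libraries of the female inguinal groups deviated together (correlations of deviations 0.105 to 0.201). All were above 0.1, the limit used here, so an alternative fit gave these libraries a replicate block. The sample titles do not name pairs. That fit compares DPP4_pos with DPP4_neg within replicates. Against any other group it sets the female inguinal groups at their replicate 1 level. Alternatives were pseudocounts of 0.5 and 5, no filter, quantile normalisation, scaling to total reads, a replicate block, each library left out, and edgeR 4.0.16 and DESeq2 1.42.0 on the recovered reads. The fits on recovered reads, the block within the female inguinal groups and the fit without both libraries numbered 3 are described in the closing section, and those added after seeing the data are named there.

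The members and all lists were chosen with earlier results of these data known. Values in every library are given for Mki67, Top2a, Cdk1, Ccnb1, Mcm2, Mcm5, Pcna and Rrm2 and for up to 3 called members per class and comparison by size of fold change, and up to 2 genes are named per other list. Promoter windows came from RefSeq.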

Additional observations from a re-analysis of the deposited data

Results flagged for a closer look

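In groups of 3 libraries no single library was tested as an outlier, so the results here are those for which the male minus female difference of a fold change itself passed an adjusted p of 0.05 in limma over all 14517 genes. All values are log2 differences, male minus female, and no explanation was tested.

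For FIP against APC these were S phase members only, Tk1 (1.44), Pcna (0.43) and Mcm4 (0.40). For DPP4_pos against DPP4_neg they were Mcm2 (1.05), Pcna (0.26) and Mcm4 (-0.31). For APC against DPP4_neg they were the mitotic members Cenpf (1.69), Ccnb1 (1.45), Prc1 (1.24), Kif23 (1.18) and Cenpe (1.18), and the helicase subunits Mcm2 (1.14), Mcm6 (0.46) and Mcm4 (-0.38).

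For FIP against DPP4_pos there were 18 mitotic members. The largest were Ccnb1 (1.97), Prc1 (1.89), Cdc20 (1.83), Kif23 (1.76), Hmmr (1.75), Plk1 (1.67), Cenpe (1.56), Kif20a (1.54) and Cdca8 (1.51). The other 9 were Birc5 (1.41), Top2a (1.32), Mki67 (1.32), Racgap1 (1.29), Nusap1 (1.28), Ccna2 (1.21), Tpx2 (1.21), Ect2 (1.04) and Kif11 (0.77). The S phase members were Ccne1 (1.19), Mcm6 (0.56), Mcm7 (-0.49) and Mcm4 (0.33). These 4 comparisons share libraries, so their values are not independent of each other. Of all genes tested, 5.46% were called higher and 5.33% lower for FIP against APC, and 16.4% and 12.6% for DPP4_pos against DPP4_neg. The shares were 22.6% and 20.3% for APC against DPP4_neg, and 15.7% and 19.2% for FIP against DPP4_pos. The 5 of 27 mitotic members for APC against DPP4_neg were a smaller share than the 22.6% of all genes.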

How the results depend on the processing

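Of 207 calls of members, 206 remained with a pseudocount of 0.5, 205 with 5, 165 without the filter, 157 with quantile normalisation, 198 with scaling to total reads, 192 with edgeR and 193 with DESeq2. Scaling to total reads and 2 fits of the female inguinal libraries, without both numbered 3 and with their number as a block, were chosen after seeing the data. Counts below are of members called in either direction, and where they moved the cause was not tested. In FIP against APC, the female S phase count of 5 was 3 without the filter, the male S phase count of 3 was 5 with quantile normalisation, and the mitotic male minus female count of 0 was 1 with DESeq2 and 1 with quantile normalisation. In DPP4_pos against DPP4_neg, the female S phase count of 7 was 4 without the filter, 4 with quantile normalisation and 2 without the libraries numbered 3. The mitotic counts, 6 in females and 5 in males, were 3 and 1 with quantile normalisation. The S phase difference count of 3 was 1 without the filter and 1 with DESeq2, and the mitotic one of 0 was 1 with a pseudocount of 5, with total reads and without the libraries numbered 3. Between the sexes, the mitotic count was 1 instead of 2 in APC with edgeR and without the filter, 15 with edgeR and 11 with total reads instead of 7 in FIP, 6 with quantile normalisation and 17 with total reads instead of 10 in DPP4_neg, and 7 instead of 12 in DPP4_pos without the libraries numbered 3. In APC against DPP4_neg, the mitotic count of 9 in females was 4 without the filter and 4 with quantile normalisation, and that of 4 in males was 10 with total reads. The S phase count of 5 in females and of 3 in the difference were 8 and 6 with quantile normalisation. The mitotic difference count of 5 was 1 without the filter, 1 with quantile normalisation, 11 with total reads and 2 without the libraries numbered 3. In FIP against DPP4_pos, the female mitotic count of 6 was 3 with edgeR, DESeq2, no filter and quantile normalisation, 10 with total reads and 16 without the libraries numbered 3. The female S phase count of 2 was 1 without the filter, with a pseudocount of 5 and without the libraries numbered 3, and the S phase difference count of 4 was 2 without the filter, with quantile normalisation and with DESeq2.

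With the replicate number as a block in all groups, 203 of 207 calls remained and the mitotic male minus female count of FIP against APC was 2. With the block within the female inguinal groups, 67 of 101 calls remained. Except between DPP4_pos and DPP4_neg, this fit used the replicate 1 level of those groups in place of their means. Its counts there do not measure an adjustment for pairing. The mitotic count was then 5 in DPP4_neg and 5 in DPP4_pos between the sexes, 4 in females and 1 in the difference for APC against DPP4_neg, and 11 in females for FIP against DPP4_pos, where the S phase count was 1 in females and 2 in the difference.

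With single libraries left out, the S phase and mitotic counts ranged from 3 to 5 and 2 to 6 for FIP against APC in females, 1 to 3 and 20 to 25 in males, and 1 to 3 and 0 to 2 for their difference. For DPP4_pos against DPP4_neg they ranged from 1 to 6 and 1 to 10 in females, 3 to 6 and 2 to 5 in males, and 0 to 4 and 0 to 2 for the difference. Between the sexes they ranged from 3 to 4 and 1 to 2 in APC, 2 to 3 and 1 to 11 in FIP, 5 to 7 and 8 to 12 in DPP4_neg, and 4 to 5 and 6 to 15 in DPP4_pos. For APC against DPP4_neg they ranged from 4 to 6 and 4 to 9 in females, 3 to 5 and 2 to 5 in males, and 3 to 5 and 1 to 6 for the difference. For FIP against DPP4_pos they were 1 in every case and 2 to 13 in females, 5 to 6 and 25 to 27 in males, and 2 to 3 and 10 to 19 for the difference.

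With quantile normalisation the mitotic median of DPP4_pos against DPP4_neg turned to 0.089 in females and 0.0142 in males, and the S phase median of its male minus female difference to -0.0231. For the male minus female difference of APC against DPP4_neg, total reads turned the S phase median to 0.16 and Mcm4 to 0.0102 (adjusted p = 0.951). With F_DPP4_neg at the replicate 1 level of the block fit, the mitotic median of that difference was -0.0117.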

Other observations

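The regulators that act before S phase were read beside the members in gonadal FIP against APC. Of 6 tested CDK inhibitors, 2 rose and 1 fell in females and 3 rose and 3 fell in males, beside female shares of 21.3% (up) and 18.1% (down) over all genes tested and male shares of 18.9% (up) and 18.0% (down). Cdkn1c, the inhibitor p57, had normalised values of 1933, 2005 and 2456 in F_FIP against 585, 629 and 791 in F_APC (log2 fold change 1.68 ± 0.12, SE, adjusted p = 4.41e-11). In males it had 452, 433 and 397 in M_FIP against 543, 558 and 529 in M_APC (-0.35 ± 0.12, adjusted p = 0.0265). Neither pair of groups overlapped, and the male minus female difference was -2.02 ± 0.17 (adjusted p = 1.49e-08). Cdkn2b, the inhibitor p15, fell in both sexes (-0.76 ± 0.21 in females, adjusted p = 0.00433, and -0.90 ± 0.21 in males, adjusted p = 0.00107).

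Of 6 G1 cyclins and their kinases, 1 rose in females, and 2 rose and 1 fell in males, beside the same shares of all genes. Ccnd3, cyclin D3, had 1114, 1009 and 1021 in F_FIP against 696, 667 and 633 in F_APC (0.65 ± 0.07, adjusted p = 1.92e-08). In males it had 1082, 1124 and 1076 against 893, 787 and 842 (0.38 ± 0.07, adjusted p = 6.31e-05). Both pairs were separate.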
